A study of Rattus norvegicus with 6 samples.

Results

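The insulin and IGF receptor axis was followed in cultured rat Schwann cells, which ensheath the axons of peripheral nerves, with and without soluble Neuregulin1 (NRG1). The axis was taken as 10 genes chosen by name: the receptors Insr and Igf1r, the receptor substrates Irs1 and Irs2, the ligands Igf1 and Igf2, and the IGF binding proteins Igfbp2, Igfbp3, Igfbp4 and Igfbp5. All 10 were present among the 17327 gene symbols of the count tables. RNA was sequenced from primary sciatic nerve Schwann cells of adult Wistar rats in 3 mock samples and 3 NRG1 samples. Each of the 3 independent cell preparations, called cultures 1, 2 and 3 here, gave 1 mock and 1 NRG1 sample. Both groups had been grown in medium with forskolin and glial growth factor, which the methods of the study give as recombinant NRG1β1, so that mock cells had met NRG1 before. They were then starved for 18 h in medium with 2% serum and 10 µM forskolin, a compound that raises cAMP. NRG1 samples then received 10 nM recombinant soluble NRG1β1 for 6 h, and mock samples received vehicle for 6 h. Cultured cells of this kind have lost their axons, and the mock samples are therefore serum-fed, forskolin-treated cells and not untouched nerve.

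Insulin and the IGFs bind a pair of closely related receptor tyrosine kinases, Insr and Igf1r. Once activated, these phosphorylate the adaptor proteins Irs1 and Irs2, which recruit PI3-kinase and thereby switch on Akt. Secreted IGF binding proteins hold IGFs outside the cell and set how much ligand reaches the receptor. IGFs are known as survival and growth signals for Schwann cells, and NRG1 reaches PI3-kinase and Akt through a different receptor family, the ErbB receptors.

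Total gene counts per sample ranged from 6821590 to 15475018, and 3 counts, taken as the detection floor, stood for 0.194 to 0.444 CPM. CPM are the counts of a gene scaled to the size of its library. That size was the total over genes that passed the filter on low counts described below, multiplied by the library's TMM normalization factor. CPM values correct for library size but not for transcript length, and levels are therefore compared between samples of 1 gene and not between genes. Culture 1 stood apart from the other cultures in both of its samples. All 9 Schwann cell markers examined had their lowest culture mean in culture 1, among them Sox10 and S100b, and their summed level was 5175 to 6439 CPM there against 13108 to 16853 CPM in cultures 2 and 3. By edgeR's test between cultures, described below, 7 of the 8 tested markers differed, and Cdh19 did not (adjusted p = 0.42). Gap43, with 1, 2 and 6 counts in cultures 1, 2 and 3, was not tested. Of 8 fibroblast markers, 7 had their highest mean in culture 1. Their summed level was 53432 to 57726 CPM there against 13696 to 22338 CPM in cultures 2 and 3, where Dcn, Lum and Thy1 were at 0 counts. In cultures 2 and 3 nearly all of this sum came from Col1a1, with 13413 to 21494 CPM. Of 4 tested fibroblast markers, 3 differed between cultures by edgeR's test, and Fbln1 did not (adjusted p = 0.058). Perineurial and mural markers summed to 3081 to 3142 CPM in culture 1 and to 228 to 412 CPM in the others. Nearly all of the sum in culture 1 came from Acta2 and Pdgfrb, with culture means of 1829 and 1225 CPM. The perineurial marker Cldn1 went the other way, with 0, 2 and 9 counts in cultures 1, 2 and 3. Endothelial markers reached at most 15.2 CPM in sum and macrophage markers at most 10.3 CPM, with Pecam1, Cdh5 and Ptprc at 0 in every sample. Among 4 neuronal markers, Syt1 was at or near 0, and nearly the whole sum came from Nefl, with 1503 to 5757 CPM. In whole-culture RNA, fewer cells of a type and less RNA per cell cannot be told apart.

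Of the axis, Irs2 was the gene whose change with NRG1 passed the test. It fell to 0.625 of its mock level. Igfbp3, a secreted IGF carrier, was 1.81-fold higher with NRG1 and missed the threshold. Both receptors, Irs1, Igfbp4 and Igfbp5 did not pass, and their ratios differed in sign between cultures. Igf1, Igf2 and Igfbp2 were counted too rarely to be tested.

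The comparison used edgeR's quasi-likelihood test with the culture as a block and Benjamini-Hochberg adjustment over the 9740 genes that passed the filter on low counts, with an adjusted p of at most 0.01 taken as the threshold. Of the 10 axis genes, 7 passed that filter. Among these 7, 1 was called, or 14.3%, against 11.8% of all genes tested, so the share called in the axis was near the background. In the downward direction the background was 5.51%, and in the upward direction, where no axis gene was called, it was 6.31%. Groups that did not overlap in CPM were found for 1 of the 7, Igfbp3, and for 20.1% of all genes tested. Beyond 2-fold, where 3.47% of all genes tested lay, there was none of the axis. The median log2 fold change of the 7 genes was 0.15, and that of all genes tested was -0.03.

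**Figure D1:**
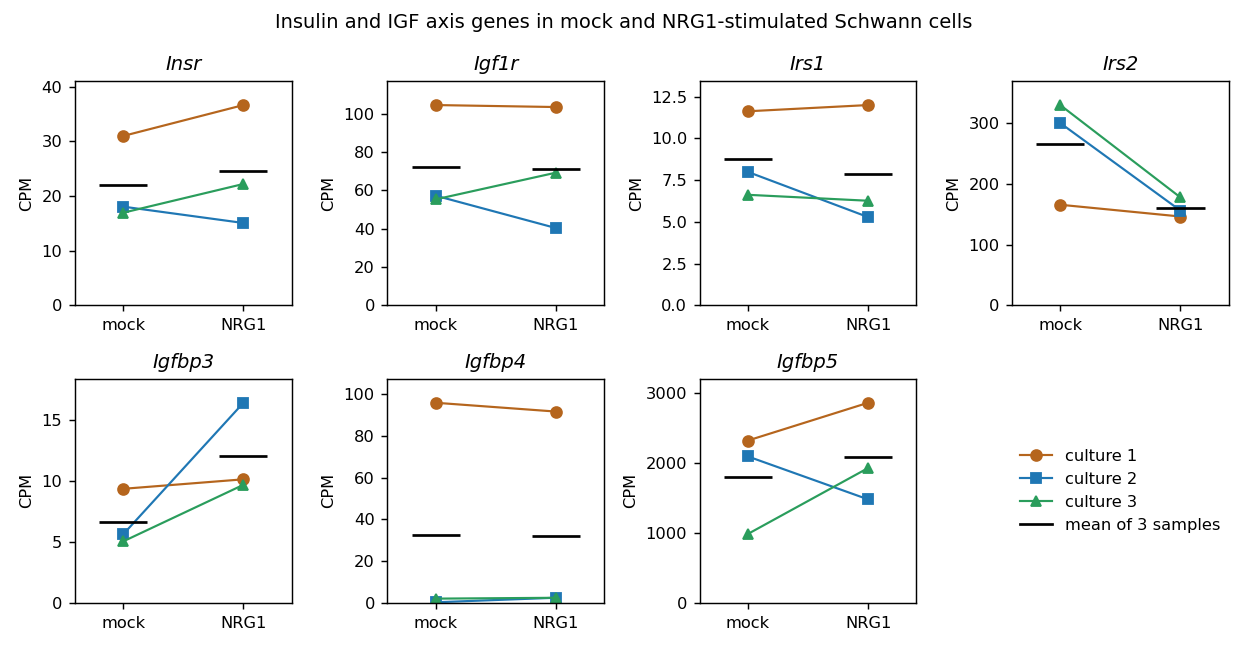
Level in CPM (vertical axes, each from 0) of the 7 tested axis genes in mock and NRG1 samples (horizontal axes), with lines joining the samples of 1 culture and black bars at the mean of 3 samples. Irs2 falls in each culture to between 146 and 178 CPM, Igfbp3 is higher with NRG1 in each, and Igfbp4 is near 0 outside culture 1.

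Among the receptors, Insr encodes the insulin receptor. Its level was 31.0, 18.1 and 16.9 CPM in mock samples of cultures 1, 2 and 3, and 36.7, 15.1 and 22.2 CPM in the NRG1 samples. The groups overlapped, with the NRG1 sample higher in cultures 1 and 3 and lower in culture 2. The log2 fold change was 0.15 (± 0.16 SE, adjusted p = 0.54), with a 95% interval from -0.19 to 0.49. A search of the RefSeq window from 250 bases before to 50 bases after the start was made for the FoxO motif TGTTTAC, because Insr is a known target of FoxO factors, which insulin signalling keeps out of the nucleus. The Insr window held 1 match, beginning 100 bases before the annotated start. It is shown 5′ to 3′ on the minus strand of GRCr8 at chr12:6128886-6128914, with the motif in capitals.
Insr: acgggccgcgtTGTTTACtggccggagtc
This motif, read on both strands, occurred in 3.78% of all 33469 such windows, and in none of the other windows of the axis. Windows were found for 9 of the 10 genes. Irs2 was the gene without a window, so its start region was searched for none of the motifs. Neither the cAMP response element TGACGTCA, held by 1.83% of all windows, nor the AP-1 motif TGANTCA, held by 7.33%, was matched in any window of the axis. A match is a stretch of letters and says nothing of binding in these cells.

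Igf1r encodes the receptor for IGF1 and IGF2. It was counted at 105, 57.3 and 55.3 CPM in mock samples of cultures 1, 2 and 3, and at 104, 40.3 and 69.3 CPM with NRG1. Culture 1 was high in both conditions, while the NRG1 sample was the lower one in culture 2 and the higher one in culture 3. The log2 fold change was -0.05 (± 0.15 SE, adjusted p = 0.84), with a 95% interval from -0.36 to 0.26. The change of Insr exceeded that of Igf1r by 0.25, 0.24 and 0.06 on the log2 scale in cultures 1, 2 and 3. An exact paired permutation test, two-sided, gave p = 0.25 for this difference, which is the smallest value that 3 pairs allow.

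Irs1 and Irs2 encode the docking proteins that carry the signal from both receptors to PI3-kinase. For Irs2, mock samples of cultures 1, 2 and 3 held 166, 301 and 330.4 CPM, and the NRG1 samples held 146, 156 and 178 CPM. Every NRG1 sample was below its own mock sample, but the mock sample of culture 1 lay below the NRG1 sample of culture 3, so the groups overlapped. Mean and SD over 3 samples were 266 ± 87.7 CPM for mock and 160.1 ± 16.1 CPM for NRG1. NRG1 samples of Irs2 thus lay close together, and most of the spread was among the mock samples. With edgeR's quasi-likelihood test the log2 fold change of Irs2 was -0.68 (± 0.15 SE, adjusted p = 0.0049), with a 95% interval from -0.997 to -0.360. Its log2 ratios within cultures 1, 2 and 3 were -0.18, -0.94 and -0.89. In culture 1, where the Schwann cell markers were lowest, the ratio was thus the smallest. Of 8 tested Schwann cell markers, 3 fell with NRG1 as well, among them S100b by 0.58 and Cdh19 by 1.10 on the log2 scale. The summed level of the marker list was 6439 to 16853 CPM in mock and 5175 to 13747 CPM in NRG1 samples, and none of 4 tested fibroblast markers was called. Of these, Col3a1, a fibrillar collagen, lay just over the threshold at -0.98 (± 0.25 SE, adjusted p = 0.0118), with log2 ratios of 0.05, -1.59 and -1.38 in cultures 1, 2 and 3, and so was lower with NRG1 in the cultures where Irs2 was lowered most. The part of the marker levels in the change of Irs2 was not tested. Left without culture 1, edgeR gave Irs2 a log2 fold change of -0.92 (adjusted p = 1.03e-05). When culture 2 or culture 3 was left out, the call was lost, with adjusted p = 0.024 and log2 fold change -0.54 in the first case and adjusted p = 0.056 and log2 fold change -0.54 in the second. In the fit without the replicate block, which ignores that mock and NRG1 samples share a culture, the adjusted p of Irs2 was 0.33.

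Irs1 was counted at 11.6, 7.99 and 6.62 CPM in mock samples of cultures 1, 2 and 3, and at 12, 5.28 and 6.26 CPM with NRG1. It was lower with NRG1 in culture 2 and differed little in cultures 1 and 3. The log2 fold change was -0.18 (± 0.21 SE, adjusted p = 0.57), with a 95% interval from -0.63 to 0.26. The log2 ratio of Irs2 was below that of Irs1 in each culture, by -0.22, -0.37 and -0.82 in cultures 1, 2 and 3. The exact paired permutation test, two-sided, gave p = 0.25, again the smallest possible with 3 pairs, so that a different response of the substrates could not be established by it. Across the 6 samples, the tested genes whose log2 CPM followed Irs2 most closely were Mvp, Paox and D2hgdh, with Pearson r of 0.998, 0.989 and 0.984. These r values are descriptions over 6 samples from 3 cultures.

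**Figure D2:**
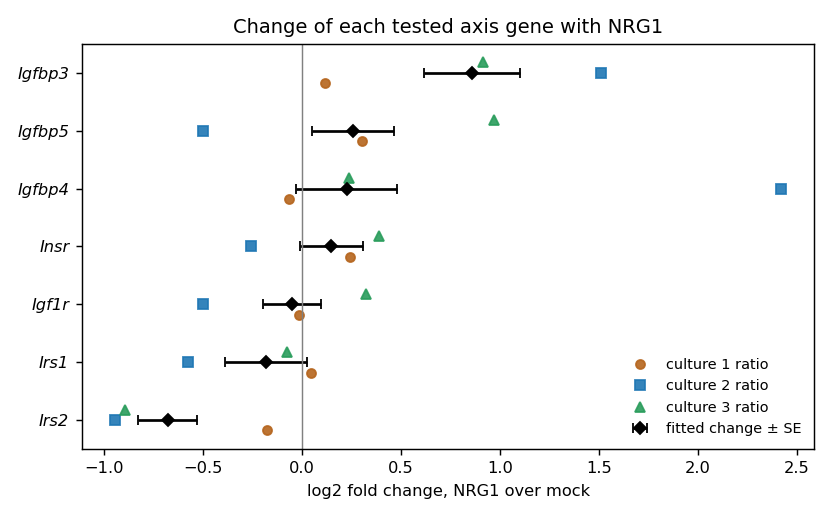
Log2 fold change of NRG1 over mock (horizontal axis) for each tested axis gene (vertical axis), with the fitted change and its standard error as a black diamond with a bar, and the ratio of each culture as a coloured symbol. Irs2 at -0.68 and Igfbp3 at 0.86 have all 3 cultures on 1 side of 0, while the other 5 genes have cultures on both sides.

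The ligand genes were scarcely represented. Igf1 had 3, 4 and 2 counts in mock samples of cultures 1, 2 and 3, and 5, 2 and 6 counts in the NRG1 samples. Igf2, the second IGF, had 4, 10 and 1 counts in mock and 3, 12 and 0 counts in NRG1 samples. Both samples of culture 2 were thus the highest for Igf2, and those of culture 3 were the lowest. No sample exceeded 0.667 CPM for Igf1 or 1.48 CPM for Igf2. Of the insulin genes of the rat, Ins2 had 0 counts in all samples, which allows a level of up to 0.194 to 0.444 CPM depending on the library, and Ins1 had at most 3 counts. Changes of these ligands with NRG1 were not detectable at this depth.

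Igfbp3 encodes the main IGF carrier of blood, which is also made locally in tissues. Its level was 9.35, 5.62 and 5.04 CPM in mock samples of cultures 1, 2 and 3, and 10.1, 16.4 and 9.68 CPM in NRG1 samples. All 3 NRG1 samples were above all 3 mock samples, although by little in culture 1. Groups without overlap and with NRG1 higher were found for 10.2% of all genes tested. By edgeR the log2 fold change of Igfbp3 was 0.86 (± 0.24 SE, adjusted p = 0.020), with a 95% interval from 0.34 to 1.38, so that it did not pass the threshold. Within cultures 1, 2 and 3 the log2 ratios were 0.11, 1.51 and 0.91. Left without culture 1, edgeR gave a log2 fold change of 1.22 (adjusted p = 0.00012), which passed the threshold. With no filter on low counts the adjusted p was 0.0017, and over all alternatives it ranged from 0.00012 to 0.36. Culture 1, the one with the smallest ratio for both Irs2 and Igfbp3, was also the one with the highest fibroblast marker sum, and the part of the markers in these ratios was not tested.

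Igfbp5, an IGF carrier that binds extracellular matrix, was counted deeply. Mock samples of cultures 1, 2 and 3 had 2316, 2089 and 984 CPM, and NRG1 samples had 2855, 1476 and 1924 CPM. It was higher with NRG1 in cultures 1 and 3 and lower in culture 2, with log2 ratios of 0.30, -0.50 and 0.97. The fitted log2 fold change was 0.26 (± 0.21 SE, adjusted p = 0.41), with a 95% interval from -0.19 to 0.70. Without culture 2, edgeR gave 0.64 (adjusted p = 0.020), and without culture 3 it gave -0.077 (adjusted p = 0.89). Its neighbour on rat chromosome 9 in the RefSeq gene order is Igfbp2, a binding protein abundant in fetal serum. Igfbp2 had 6, 1 and 1 counts in mock and 4, 2 and 2 counts in NRG1 samples of cultures 1, 2 and 3, with cultures 2 and 3 under the floor of 3 counts. It was not tested.

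Igfbp4 encodes a binding protein that is known to inhibit IGF action and is inactivated by the protease PAPP-A. It had 717, 2 and 26 counts in mock samples of cultures 1, 2 and 3, and 687, 22 and 38 counts with NRG1, or 95.8, 0.296 and 2.05 CPM against 91.6, 2.47 and 2.45 CPM. The mock sample of culture 2 was under the floor, and both samples of culture 1 were far above all others. The log2 fold change with NRG1 was 0.23 (± 0.26 SE, adjusted p = 0.56). Without culture 1 it was 0.93 (adjusted p = 0.12), a value that rests on the few counts of cultures 2 and 3.

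Levels of the axis genes were also compared between cultures. The 3 cultures were compared in the same fit, by testing both culture terms together, and 23.4% of all genes tested differed between cultures at an adjusted p of at most 0.01. In the axis, Igfbp4, Igf1r and Insr did, which was 3 of the 7 tested genes. Igfbp4 differed most, with a mean of 93.7 CPM in culture 1 against 1.38 and 2.25 CPM in cultures 2 and 3 (adjusted p = 4.94e-10 by edgeR), a level 51.6-fold that of the mean of the other cultures. Igf1r averaged 104 CPM in culture 1 against 48.8 and 62.3 CPM (adjusted p = 0.00058), and Insr averaged 33.8 CPM against 16.6 and 19.6 CPM (adjusted p = 0.0014). Irs1 was likewise higher in culture 1, at 11.8 against 6.64 and 6.44 CPM, and missed the threshold (adjusted p = 0.016). Irs2 was ordered the other way, at 156 CPM in culture 1 against 228 and 254 CPM (adjusted p = 0.035). Igfbp5 (adjusted p = 0.038) and Igfbp3 (adjusted p = 0.26) did not pass either. With culture 1 left out, the adjusted p for the difference between cultures 2 and 3 was 0.544 for Igfbp4, 0.378 for Igf1r and 0.765 for Insr, so that these differences rested on culture 1. Igf2 then had 22 counts in culture 2 and 1 in culture 3. It passed the filter only through the samples of culture 2, where it was high. A test between these cultures is therefore not independent of the filter, and none is read here.

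Other genes that bind IGFs were looked at beside Igfbp4 after their values had been seen. Igfbp6, a binding protein with preference for IGF2, had 540 and 548 counts in the mock and NRG1 samples of culture 1 and 0 to 2 counts in each of the other samples. Igf2r, the receptor that clears IGF2 by carrying it to lysosomes, averaged 890.3 CPM in culture 1 against 113 and 106 CPM in cultures 2 and 3 (adjusted p = 1.57e-09 by edgeR for the culture difference). For NRG1 against mock, Igfbp6 did not pass the filter on low counts, and Igf2r had a log2 fold change of -0.09 (± 0.14 SE, adjusted p = 0.69). The fibroblast marker Dcn averaged 519 CPM in culture 1 and 0 in the others, Pdgfra averaged 849 CPM against 0.524 and 1.16 CPM, and Acta2, a contractile protein of mural cells and myofibroblasts, averaged 1829 CPM against 3.02 and 0.62 CPM. In the wider pathway list described next, 19 of 60 tested genes differed between cultures, against 23.4% of all genes tested. Another fibroblast gene, Col1a2, had at most 2 counts in any sample, so the marker lists depend on which transcripts the counting recovered. How much of the Igfbp4, Igfbp6 and Igf2r signal of culture 1 came from cells other than Schwann cells was not tested.

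**Figure D3:**
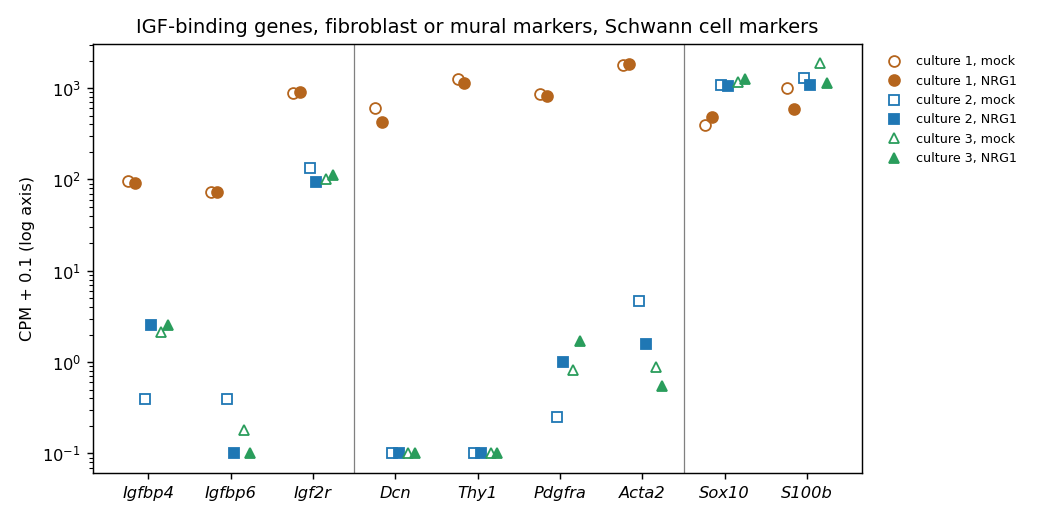
CPM plus 0.1 on a log axis (vertical) for 3 IGF-binding genes, 4 fibroblast or mural markers and 2 Schwann cell markers (horizontal), with 1 symbol per sample, open for mock and filled for NRG1. In culture 1, Igfbp4 at 91.6 to 95.8 CPM, Igfbp6, Igf2r and the fibroblast or mural markers are above every sample of cultures 2 and 3, and Sox10 and S100b are below.

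Beyond the 10 genes, a list of 82 genes of the wider insulin and IGF pathway was read from the same fit. Of these, 75 symbols were matched and 60 were tested. NRG1 raised 5 and lowered 3 of them at an adjusted p of at most 0.01, or 13.3% against the background of 11.8%. The median log2 fold change was 0.08 in the list and -0.03 over all genes tested. No gene of the subgroups of ligands and secreted regulators (3 tested), receptors and receptor processing (7 tested) or IGF2 mRNA-binding proteins (1 tested) was called.

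Downstream of the receptors, the called genes were spread over several steps. Gab1, a docking protein that serves several receptor tyrosine kinases, was the called gene among 10 tested adaptors, and fell from 188 ± 58.5 CPM to 129 ± 33.8 CPM (mean and SD of 3 samples each), a log2 fold change of -0.52 (± 0.13 SE, adjusted p = 0.0093). Among 14 tested genes of PI3-kinase and Akt, Inpp5k fell. It encodes a phosphatase that removes a phosphate from phosphoinositides and is known to dampen insulin signalling. Mock samples of cultures 1, 2 and 3 held 47.2, 54.7 and 49.6 CPM of Inpp5k and NRG1 samples held 33.2, 30.7 and 30.9 CPM, so the groups did not overlap, as for 9.94% of all genes in this direction. The log2 fold change was -0.68 (± 0.13 SE, adjusted p = 0.0021). Akt1, with 0.40 (± 0.12 SE, adjusted p = 0.022), did not pass.

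In the mTOR branch, 1 gene rose and 1 fell among 11 tested. Eif4e, the cap-binding protein of translation initiation, rose from 62.8 ± 7.81 CPM to 111 ± 26.4 CPM (mean and SD of 3 samples each), with a log2 fold change of 0.79 (± 0.12 SE, adjusted p = 0.00043). Ddit4, which encodes an inhibitor of mTOR complex signalling, fell from 371 ± 145 CPM to 219 ± 45.1 CPM (mean and SD of 3 samples each), with a log2 fold change of -0.69 (± 0.14 SE, adjusted p = 0.0034). Its log2 ratios of -0.25, -0.86 and -0.95 in cultures 1, 2 and 3 were smallest in culture 1, as for Irs2. Rps6, a ribosomal protein gene of the same branch, had 1 to 64 counts and was not tested.

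Among glucose-handling and FoxO genes, 2 of 8 tested rose. Hk2, the hexokinase that traps glucose in the cell, was the listed pathway gene past 2-fold. Its level was 29.1, 28.4 and 18.8 CPM in mock and 74.9, 39.2 and 45.4 CPM in NRG1 samples of cultures 1, 2 and 3, a log2 fold change of 1.05 (± 0.17 SE, adjusted p = 0.00056). The glucose transporter gene Slc2a1 rose from 48.1 ± 6.26 CPM to 73.7 ± 20.7 CPM (mean and SD of 3 samples each), with a log2 fold change of 0.59 (± 0.13 SE, adjusted p = 0.0045). Log2 ratios in cultures 1, 2 and 3 were 1.36, 0.46 and 1.27 for Hk2, and 0.80, 0.36 and 0.60 for Slc2a1. Unlike those of Irs2 and Ddit4, they were largest in culture 1, and they were smallest in culture 2. Foxo4 had a log2 fold change of -0.42 (± 0.12 SE, adjusted p = 0.018) and was not called.

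Of 6 feedback inhibitors, Trib1 and Trib2 rose. Both encode pseudokinases that act as scaffolds for protein degradation. Trib2 was counted at 16.2, 13.2 and 15.9 CPM in mock and at 18.9, 39.1 and 27.8 CPM in NRG1 samples of cultures 1, 2 and 3. The NRG1 samples were all higher, by least in culture 1, and the log2 fold change was 0.87 (± 0.20 SE, adjusted p = 0.0069). For Trib1 the log2 fold change was 0.74 (± 0.15 SE, adjusted p = 0.0031), with similar ratios of 0.89, 0.61 and 0.68 in the 3 cultures. Trib3, Socs1, Socs2 and Socs3 were not called.

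The calls in this list depended on the cultures included. Without culture 1, 3 of the 5 rises passed (Eif4e, Hk2 and Trib2) and 2 of the 3 falls (Ddit4 and Inpp5k), with no other gene called. Without culture 2, 4 of the 5 rises passed (Eif4e, Hk2, Slc2a1 and Trib1) and 1 of the 3 falls (Inpp5k), and Gys1 and Ptpn1 were called up in addition. Without culture 3, 2 of the 5 rises (Eif4e and Hk2) and 0 of the 3 falls passed. Grb14, not tested in the main fit, was then called down. It had 10 and 19 counts in mock and 3 and 1 in NRG1 samples of cultures 1 and 2. Grb14 thus passed the filter only through its mock samples, where it was high. Its call is therefore not independent of the filter and is not read as a fall. Hk2 and Eif4e thus passed in each of these fits, and Gab1 passed in none of them.

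**Figure D4:**
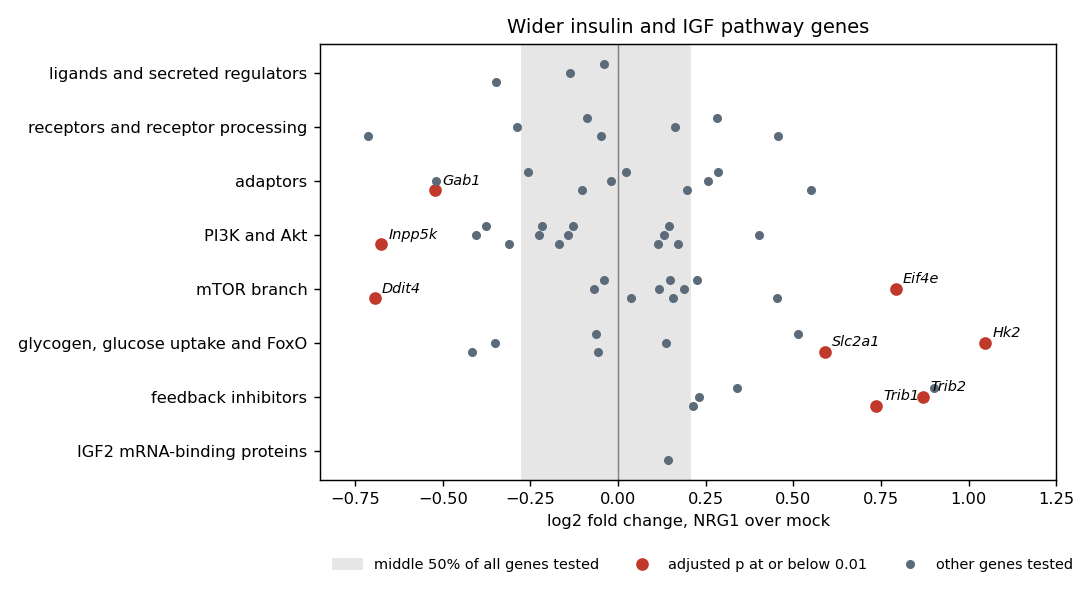
Log2 fold change of NRG1 over mock (horizontal axis) for the 60 tested genes of the wider pathway, by subgroup (vertical axis), with genes at an adjusted p of at most 0.01 in red and named. The grey band, from -0.27 to 0.21, holds the middle 50% of all genes tested, and the 8 named genes lie outside it, 5 to the right and 3 to the left.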

How the data were processed

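Poly(A) RNA libraries (TruSeq RNA Sample Prep Kit, NextSeq 500) were mapped by the authors to rn5 with TopHat 2.0.10 and counted per RefSeq gene with htseq. The deposited values are raw counts, 1 file per sample, and their strand setting is not given in the sources used here, so reads of overlapping antisense genes may not be told apart. Summary lines, alignments to more than 1 place among them, 50.1% to 53.0% of the alignments of a file, were left out of library sizes.

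Counts were analysed with edgeR 4.0.16 in R 4.3.3: filterByExpr with a minimum count of 10 (9740 genes kept, 7587 removed), TMM, and a quasi-likelihood fit with culture as block and condition, as in the paired design of the study. The same numbers come from the same cell preparation. Deviations from group means correlated across genes with r of 0.91, 0.67 and 0.81 for same-numbered samples, and from -0.80 to 0.51 for differently numbered ones, the positive values being those between cultures 2 and 3. Each standard error (SE) was obtained from the size of the fitted change and the root of its F statistic, and 95% intervals use the moderated degrees of freedom. Log2 ratios within cultures used log2 CPM with a prior count of 2. A level of 3 counts was taken as floor, and floors and counts carry counting error only.

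Named were all 10 axis genes, the called pathway genes (at most 20, by size of change), and the 3 genes most like each called axis gene. Axis genes, lists and motifs were chosen with earlier results of these data known. Sequences are from RefSeq (GRCr8), used for no coordinates of the counted genes. As alternatives, the block was dropped, DESeq2 1.42.0 was run with and without shrinkage, and RLE size factors, other filters and the removal of each culture were tried. Scripts were tested on simulated data. Values of some genes of the lists are not reported here.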

Additional observations from a re-analysis of the deposited data

How the results depend on the processing

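With no replicate block, the fit that ignores the pairing, edgeR called 0 genes up and 0 down (smallest adjusted p 0.14), 0 past 2-fold, 0 axis genes and 0 pathway genes in either direction. At an unadjusted p under 0.05 it gave 1334 genes, 2 of them in the axis. With the block, DESeq2 called 590 genes up and 433 down, and with shrunken fold changes 199 genes were past 2-fold, against 338 by edgeR. Without the low-count filter 13129 genes were tested, with all 10 axis genes among them. In that fit 848 genes rose, against 615 in the main fit, and 857 fell, against 537. Of the axis, Igfbp3 rose and Irs2 fell, and of the pathway list 7 genes rose and 5 fell. Of the 13129 genes, 3543 differed between cultures, as did 7 of the 10 axis genes. Leaving out each culture in turn gave 408 to 590 genes up, 253 to 601 down and 255 to 501 past 2-fold. It gave 0 to 1 axis genes up and 0 to 1 down, and 2 to 6 pathway genes up and 1 to 2 down. The 1 pathway gene down without culture 3 was Grb14, whose call is not independent of the filter. Between cultures, 245 to 3783 genes and 1 to 6 axis genes differed, with the lowest of these counts without culture 1 and the highest without culture 2. The 1 axis gene without culture 1 was Igf2, which passed the filter only through the samples of culture 2, where it was high. That count of 1 is therefore not read as a result. Irs2 stayed negative in all 9 alternatives, from -0.92 to -0.54 on the log2 scale, and was called in 6. Igfbp3 stayed positive in all 9, from 0.55 to 1.22, and was called in 2. Signs turned for genes that were not called: leaving out each culture in turn gave Igf1r from -0.23 to 0.16, Igfbp4 from -0.0037 to 0.93 and Igfbp5 from -0.077 to 0.64, and Igfbp4 was -0.030 with no replicate block. The cause of these shifts was not tested. With at least 10 counts in every sample, Igfbp4 was not fitted. At 3 pairs an exact paired test cannot go below p = 0.25. Igf1 and Igfbp2 passed the filter in none of the fits that leave out a culture. Igf2 passed it without culture 1 and without culture 3, with log2 fold changes of -0.29 (adjusted p = 0.84) and -0.19 (adjusted p = 0.89).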
